A study of Mus musculus with 13 samples.

Results

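Cd14, Itgam, Ptprc and Lyz2 are genes of leukocytes and macrophages, and 5-hydroxymethylcytosine (5hmC) was read here in the 300 kb bins of the genome that overlap their gene bodies. The rule gave 5 bins for the 4 genes, out of 8576 bins with signal among 9097 deposited, because Itgam crosses a bin boundary and lies in 2 bins. The rule used positions only, and no measured value entered it, but the genes were chosen with earlier results of these data known. The 13 samples were breast tumours driven by the polyoma virus middle T oncogene (PyMT) in FVB mice, 1 tumour a mouse, whose genomic DNA was profiled by shallow tet-assisted bisulfite sequencing. That method leaves 5hmC to be read as cytosine while cytosine and 5-methylcytosine are read as thymine.

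In the first model, 16-week-old mice were Phd2+/+ (n = 3) or Phd2+/- (n = 4) and received no plasmid. Phd2 encodes an oxygen sensor that marks HIF for destruction, and the labels describe Phd2+/- tumours as better vascularised and oxygenated. In the second model, 12-week-old mice were hydrodynamically injected with an empty PRRL2 plasmid (empty vector, n = 3) or with PRRL2-sFlk1 (sFlk1, n = 3), which encodes a soluble VEGF receptor; the labels describe sFlk1 tumours as more hypoxic. Hydrodynamic injection delivers a plasmid mainly to the liver, so the receptor reaches the tumour from the blood. The models differ in age, so model and age cannot be told apart, and each group rests on 3 or 4 tumours. Whole tumours were used, so a bin's percentage is a mean over the DNA of tumour cells, leukocytes and other stroma alike. Fewer cells of a type and less 5hmC per cell cannot be told apart, and DNA carries no transcript by which leukocyte content could be checked.

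TET enzymes make 5hmC by oxidising 5-methylcytosine and need oxygen to do so, and in many tissues the mark is found over the bodies of transcribed genes. Monocytes and macrophages enter tumours in large numbers. CD14 hands bacterial lipopolysaccharide to the receptor TLR4 on monocytes and macrophages. ITGAM (CD11b) is the alpha chain of the integrin Mac-1, by which myeloid cells adhere and take up complement-coated particles. PTPRC (CD45), a membrane tyrosine phosphatase carried by nearly all leukocytes, sets the activity of Src-family kinases such as LCK. LYZ2 is the lysozyme of macrophages and neutrophils, an enzyme that cuts bacterial cell walls.

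Tet-assisted bisulfite sequencing reads the mark mostly at CpG sites, and the promoter windows shown here differ in how many they hold. The 250 bases before the first start listed in the promoter table (RefSeq, GRCm38.p6) are shown for the 3 of 4 genes matched in it. They are written 5′ to 3′ on the gene's strand with each CpG in capitals. The windows are chr7:128062390-128062639 on the plus strand for Itgam, chr1:138175306-138175555 on the minus strand for Ptprc and chr10:117282273-117282522 on the minus strand for Lyz2. The annotated body of Ptprc reaches 138175756, so the Ptprc window lies inside the body and not before its 5′ end.
Itgam: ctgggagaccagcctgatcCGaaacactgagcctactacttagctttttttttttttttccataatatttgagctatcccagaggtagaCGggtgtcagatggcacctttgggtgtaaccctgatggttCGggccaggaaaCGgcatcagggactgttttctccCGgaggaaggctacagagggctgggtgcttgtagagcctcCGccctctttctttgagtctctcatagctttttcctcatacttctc
Ptprc: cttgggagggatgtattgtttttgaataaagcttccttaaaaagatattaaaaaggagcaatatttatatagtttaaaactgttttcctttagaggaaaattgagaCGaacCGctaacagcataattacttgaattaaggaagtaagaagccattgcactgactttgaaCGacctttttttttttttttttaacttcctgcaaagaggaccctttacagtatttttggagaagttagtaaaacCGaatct
Lyz2: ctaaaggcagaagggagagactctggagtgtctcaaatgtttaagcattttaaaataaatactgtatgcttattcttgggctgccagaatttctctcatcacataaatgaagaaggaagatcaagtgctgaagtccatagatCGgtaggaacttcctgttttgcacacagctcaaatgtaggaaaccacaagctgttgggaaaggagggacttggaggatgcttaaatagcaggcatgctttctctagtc
The Itgam window held 6 CpGs, the Ptprc window 4 and the Lyz2 window 1. Ptprc has a second annotated start, whose window (chromosome 1, 138175127 to 138175376, not shown) overlaps the first and held 2. Over the 32851 promoter windows of the same length the median was 6, and 18.8% held as few as Lyz2, 44.4% as few as Ptprc and 53.7% as few as Itgam. The letters GAGGAA, a core of the box bound by the myeloid factor PU.1, were searched on both strands. They occurred once on each strand in the Itgam window and once in the Ptprc window shown, but not in that of the second start, and 23.3% of all promoter windows held them on either strand. The Lyz2 window held none, which says only that these letters are not in it. Each window is a very small piece of its bin, and the bin percentages do not resolve it.

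The share of a bin that belongs to the named gene differed widely. Ptprc (gene ID 19264, chromosome 1, 138062859 to 138175756) filled 37.6% of its bin, which holds 1 other coding gene, Atp6v1g3, a subunit of the vacuolar proton pump. Itgam (gene ID 16409, chromosome 7, 128062640 to 128118491) had 66.9% of its body in the bin that starts at 127800001, its 5′ bin, and 33.1% in the bin that starts at 128100001, its 3′ bin. It covered 12.5% of the first and 6.16% of the second. The 5′ bin holds 16 coding genes, among them Pycard, which encodes an inflammasome adaptor. The 3′ bin holds 10, among them the sister integrin genes Itgax (CD11c) and Itgad. Lyz2 (gene ID 17105, chromosome 10, 117277541 to 117282272) covered 1.58% of a bin with 8 coding genes, in which its paralogue Lyz1 also lies and the signalling adaptor gene Frs2 alone covers 26.1%. Cd14 (gene ID 12475, chromosome 18, 36725064 to 36726815) covered 0.584% of a bin with 15 coding genes, among them the histidyl-tRNA synthetase genes Hars and Hars2. The median bin holds 2 coding genes. Each value below is thus a value of the neighbourhood, and of Ptprc more than of the other genes.

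Across the 13 tumours the Lyz2 bin had the highest mean 5hmC of the 4 genes and the Ptprc bin the lowest. The mean was 4.56% ± 1.04 (SD, n = 13) at Lyz2, 3.93% ± 1.51 at the Itgam 5′ bin, 2.93% ± 0.851 at Cd14, 2.47% ± 0.679 at the Itgam 3′ bin and 1.86% ± 0.66 at Ptprc. Bins with the same number of coding genes had medians of 3.64% (as many as Lyz2, 198 bins), 2.27% (Itgam 5′ bin, 22 bins), 3.22% (Cd14, 22 bins), 3.49% (Itgam 3′ bin, 87 bins) and 2.78% (Ptprc, 1153 bins). Lyz2 and the Itgam 5′ bin thus lay above the median of such bins, and Cd14, the Itgam 3′ bin and Ptprc below it. Ranked among all bins of the same tumour, Lyz2 stood between percentiles 61.1 and 95.7 with a median of 84, and Ptprc between 13.5 and 58.6 with a median of 41.6. The Ptprc bin, the one that belongs most to its gene, was below the mean of its tumour in all but Phd2+/- 1 and sFlk1 1, with ratios from 0.282 to 1.07.

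For the order of levels, Itgam was represented by its 5′ bin, and neighbours in the order were compared within tumours by an exact two-sided sign-flip permutation test over 8192 arrangements. The order was taken from the means of the same tumours, a choice that the adjustment over the 3 pairs does not cover. The Itgam 3′ bin, at 2.47%, had a lower mean than Cd14, at 2.93%, so the place of Itgam above Cd14 holds for its 5′ bin only. Lyz2 exceeded Itgam by 0.63 points ± 1.69 (SD, n = 13), higher in 8 of 13 tumours, a difference within the spread (exact p = 0.202, the same adjusted over the 3 pairs). Itgam exceeded Cd14 by 1.00 points ± 1.42 (SD, n = 13), higher in 9 of 13 (exact p = 0.0291, adjusted over 3 pairs 0.0436). With 1 tumour left out, the adjusted exact p ran from 0.0205 to 0.0872, and the call was lost for 8 of the 13 (Phd2+/+ 1 and 3, Phd2+/- 1, 2 and 4, empty vector 1 and 3, and sFlk1 1). Cd14 exceeded Ptprc by 1.08 points ± 1.03 (SD, n = 13), higher in 10 of 13 (exact p = 0.00269, adjusted 0.00806). Within Itgam, the 5′ bin exceeded the 3′ bin by 1.46 points ± 1.42 (SD, n = 13) in 11 of 13 tumours (exact p = 0.00269, a comparison added after the data were seen). Weighted by the share of the gene in each bin, Itgam stood at 3.02% ± 1.03 (SD, n = 3) in Phd2+/+, 4.32% ± 1.21 (n = 4) in Phd2+/-, 3.27% ± 1.19 (n = 3) in empty vector and 2.90% ± 0.617 (n = 3) in sFlk1 tumours.

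Tumours also differed in their 5hmC over the whole genome. The mean over all bins was 2.34% ± 0.137 (SD, n = 3) in Phd2+/+, 2.87% ± 0.265 (n = 4) in Phd2+/-, 2.68% ± 0.158 (n = 3) in empty vector and 2.46% ± 0.067 (n = 3) in sFlk1 tumours. Each difference within a model is therefore given on the percentages and again after dividing by the tumour's mean over bins and multiplying by the mean of all tumours. Differences were fitted with limma over all 8576 bins, p-values were adjusted by Benjamini-Hochberg over all of them, and a bin was called at an adjusted p under 0.05. Read counts are not in the table, so the depth behind a percentage is unknown; between 74 and 428 bins read 0 in a tumour. None of the 5 bins was called in any of 4 contrasts, 20 tests in all.

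**Figure D1:**
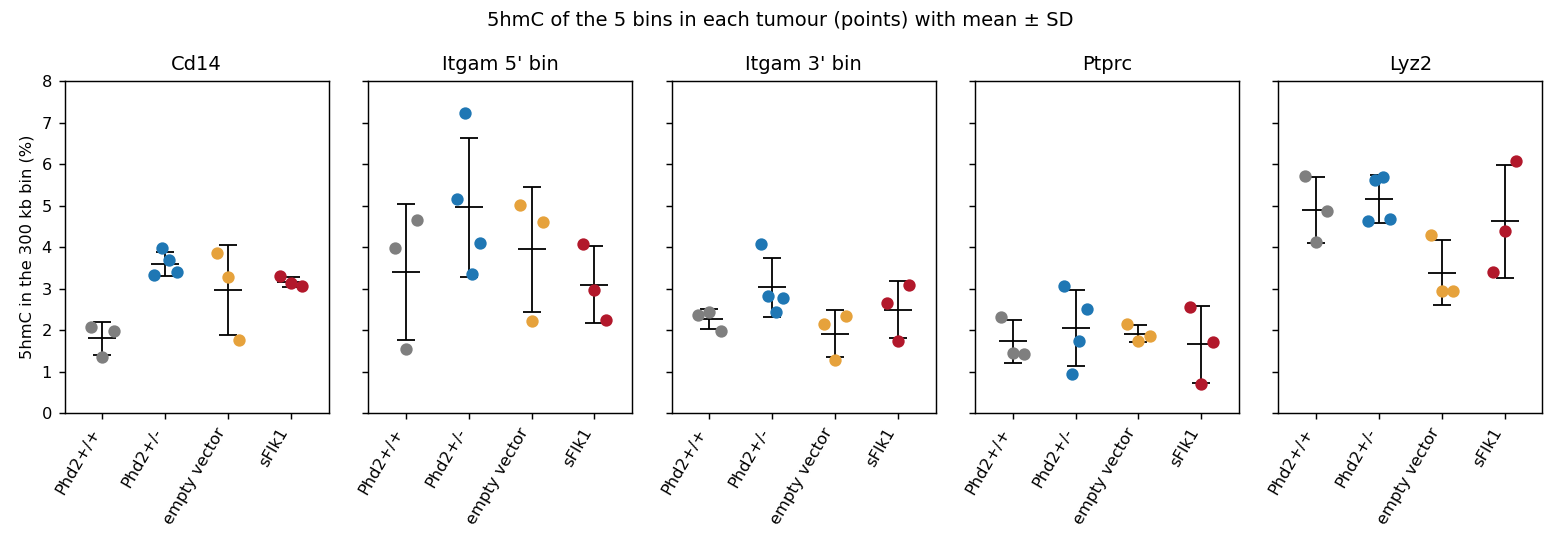
5hmC in percent (vertical axis) of the 5 bins in each tumour, by group (horizontal axis); points are tumours, and bars the mean ± SD. At Cd14 the 3 Phd2+/+ tumours, at 1.35 to 2.07%, lie below all 4 Phd2+/- tumours, while the groups overlap at Itgam, Ptprc and Lyz2 in the Phd2 model.

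Cd14 had the clearest separation by genotype. Its bin read 2.07, 1.35 and 1.98% in Phd2+/+ tumours 1 to 3 and 3.32, 3.97, 3.69 and 3.40% in Phd2+/- tumours 1 to 4. Every Phd2+/- tumour was above every Phd2+/+ tumour, a separation that 11% of all bins showed. The mean was 1.80% ± 0.393 (SD, n = 3) against 3.59% ± 0.295 (n = 4), a difference of 1.80 points (SE 0.574, 95% interval 0.618 to 2.97) or 99.9% of the lower mean. A two-sided exact permutation test gave p = 0.0286, and 3 against 4 tumours can give none lower. Over all bins the limma adjusted p was 0.337, so the bin was not called. Divided by the tumour mean, the difference was 1.29 points (SE 0.541; limma adjusted p = 1), and the groups still did not overlap. The share of all bins separated in this way after division was not counted. Over the 900 kb window that adds both neighbouring bins, the difference was 0.822 points.

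In the plasmid model the Cd14 bin read 3.85, 3.27 and 1.76% in empty vector tumours and 3.30, 3.13 and 3.05% in sFlk1 tumours. The sFlk1 values lay close together and inside the range of the empty vector values, in which tumour 3 was low. The means were 2.96% ± 1.08 and 3.16% ± 0.129 (SD, n = 3 each), a difference of 0.202 points (SE 0.613, 95% interval -1.06 to 1.46; limma adjusted p = 0.963). An exact permutation test gave p = 0.9, where 3 against 3 tumours cannot go below 0.1. Divided by the tumour mean, the difference was 0.501 points (exact permutation p = 0.6). Without empty vector 3 the difference on the percentages was -0.396 points, and without empty vector 1 it was 0.647. The lowest values at Cd14 were thus those of the Phd2+/+ tumours and of empty vector 3, not those of the sFlk1 tumours.

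Itgam read higher on average in Phd2+/- tumours in both of its bins, within the spread between tumours. The 5′ bin read 3.97, 1.55 and 4.66% in Phd2+/+ and 5.15, 7.22, 3.36 and 4.09% in Phd2+/- tumours, so the groups overlapped, and Phd2+/+ 2 and Phd2+/- 2 lay far from the rest. The difference was 1.56 points (SE 0.878, 95% interval -0.245 to 3.36; limma adjusted p = 0.511; exact permutation p = 0.343), and without Phd2+/+ 2 it was 0.638. After division it was 0.731 points (exact permutation p = 0.543). The 3′ bin, where Itgax and Itgad also lie, read 2.37, 2.44 and 1.98% in Phd2+/+ and 4.07, 2.83, 2.43 and 2.78% in Phd2+/- tumours. There 11 of the 12 pairs of tumours were higher in Phd2+/-, with a difference of 0.764 points (SE 0.552, 95% interval -0.37 to 1.9; limma adjusted p = 0.611; exact permutation p = 0.0857). After division it was 0.224 points (exact permutation p = 0.657), and without Phd2+/- 1 it was 0.416 points on the percentages.

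With sFlk1 the means of the 2 Itgam bins differed from empty vector in opposite directions, neither beyond the spread. The 5′ bin read 5.01, 2.21 and 4.61% in empty vector and 4.08, 2.96 and 2.25% in sFlk1 tumours. That is a difference of -0.847 points (SE 0.939, 95% interval -2.78 to 1.08; limma adjusted p = 0.869; exact permutation p = 0.5). It was -1.71 without empty vector 2, -0.313 without empty vector 1 and -0.518 after division by the tumour mean. The 3′ bin read 2.14, 1.27 and 2.33% in empty vector and 2.66, 1.74 and 3.08% in sFlk1 tumours. Its difference was 0.578 points (SE 0.59, 95% interval -0.634 to 1.79; limma adjusted p = 0.862; exact permutation p = 0.4), with 7 of 9 pairs higher in sFlk1. It was 0.257 without empty vector 2, 0.953 without sFlk1 2 and 0.779 after division by the tumour mean. The tumours overlapped in both bins.

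Ptprc, the pan-leukocyte gene, read 2.32, 1.44 and 1.42% in Phd2+/+ and 3.05, 0.94, 1.73 and 2.50% in Phd2+/- tumours. The Phd2+/- tumours spanned the whole range of the Phd2+/+ tumours, with a difference of 0.329 points (SE 0.536, 95% interval -0.772 to 1.43; limma adjusted p = 0.841; exact permutation p = 0.571). Divided by the tumour mean, the difference was -0.00463. In the plasmid model the bin read 2.15, 1.74 and 1.86% in empty vector and 2.55, 0.698 and 1.72% in sFlk1 tumours, the latter spread on both sides of the former. The difference was -0.262 points (SE 0.573, 95% interval -1.44 to 0.916; limma adjusted p = 0.946; exact permutation p = 0.7), and -0.0955 after division. As a multiple of the tumour's mean, Ptprc stood at 0.735 in Phd2+/+, 0.734 in Phd2+/-, 0.715 in empty vector and 0.679 in sFlk1 tumours.

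Lyz2, the lysozyme gene, read 5.71, 4.13 and 4.86% in Phd2+/+ and 4.63, 5.62, 5.68 and 4.68% in Phd2+/- tumours. The groups overlapped, with 6 of 12 pairs higher in Phd2+/- and a difference of 0.25 points (SE 0.734, 95% interval -1.26 to 1.76; limma adjusted p = 0.923; exact permutation p = 0.657). Divided by the tumour mean the difference was -0.747 points (SE 0.678; exact permutation p = 0.143). In the plasmid model the bin read 4.28, 2.93 and 2.94% in empty vector and 3.39, 4.38 and 6.08% in sFlk1 tumours. Here 8 of 9 pairs were higher in sFlk1, on means of 3.39% ± 0.776 and 4.62% ± 1.36 (SD, n = 3 each). The difference of 1.23 points (SE 0.785, 95% interval -0.379 to 2.84) had a limma adjusted p of 0.75 and an exact permutation p of 0.2. Divided by the tumour mean it was 1.60 points (SE 0.725; limma adjusted p = 0.665), and without sFlk1 3 it was 0.5 points on the percentages.

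**Figure D2:**
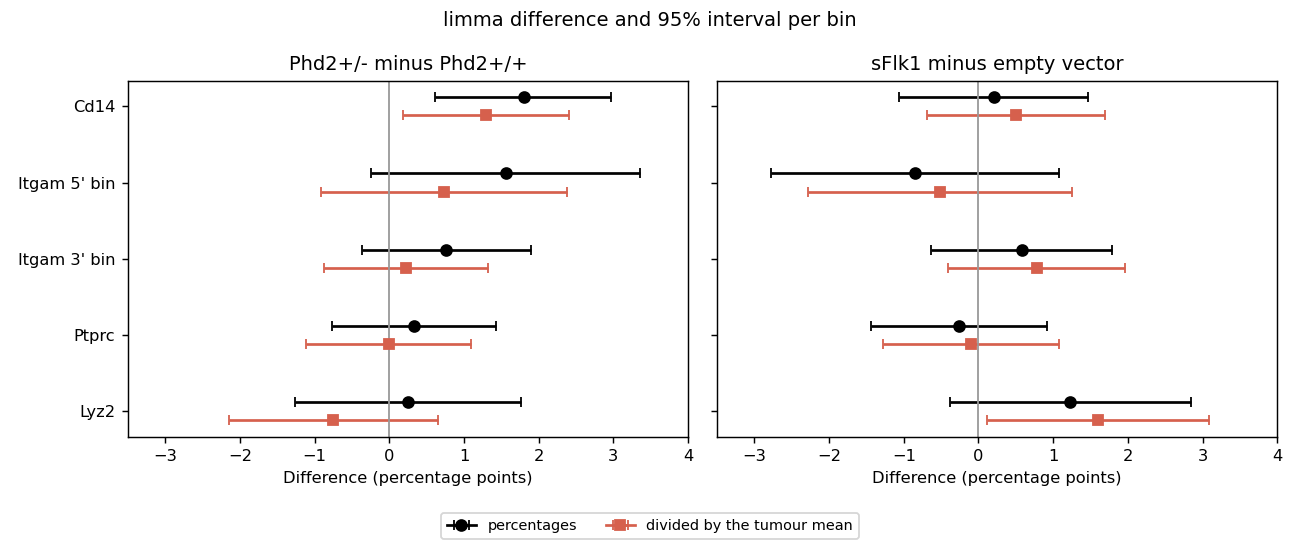
Difference in 5hmC in percentage points (horizontal axis) at each bin, for Phd2+/- minus Phd2+/+ on the left and sFlk1 minus empty vector on the right. Points are limma estimates with 95% intervals, black on the percentages and red after division by the tumour mean; on the left, intervals of both kinds lie above 0 at Cd14 only, and the interval at Lyz2 on the right does so after division.

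Read against all bins, the 5 differences by genotype were all above 0, as were those of 75.1% of bins, with a median of 0.764 points against 0.385 over all bins. After division by the tumour mean, 3 of the 5 were above 0, against 46.8% of bins. In the Phd2 contrast 0% of bins had an adjusted p under 0.05 and 10.8% an unadjusted p under 0.05, among the latter 1 of the 5 bins, Cd14. After division the share of unadjusted calls was 3.85%, again with Cd14 as the 1 bin of the 5. In the plasmid contrast 2 of the 5 bins had a lower mean in sFlk1, the Itgam 5′ bin and Ptprc, against 59.5% of all bins, or 47.9% after division, where it was also 2 of 5. There 0.0117% of bins (1 bin) were called at an adjusted p under 0.05, and 7.18% had an unadjusted p under 0.05, none of them among the 5. After division that share was 7.21%, with Lyz2 as 1 of the 5.

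The labels set Phd2+/- and empty vector as the better oxygenated side of each model, and the mean of both differences was taken as 1 contrast. Cd14 was 0.797 points higher on that side (SE 0.42, 95% interval -0.0651 to 1.66; limma adjusted p = 0.423; exact permutation p = 0.0971), and 0.394 points after division by the tumour mean (exact permutation p = 0.351). Without empty vector 3 its difference was 1.10 and the exact permutation p 0.00571, and without empty vector 1 they were 0.575 and 0.263. With any other tumour left out, the exact permutation p at Cd14 was 0.08 or higher. The Itgam 5′ bin was 1.20 points higher (SE 0.643; limma adjusted p = 0.43; exact permutation p = 0.156), or 0.624 after division, and the values of the Itgam 3′ bin, Ptprc and Lyz2 were 0.093, 0.296 and -0.491 points. On the percentages the models went opposite ways at Cd14, the Itgam 3′ bin and Lyz2, where Phd2+/- and sFlk1 tumours each had the higher mean. At Cd14 Phd2+/- was 1.80 points above Phd2+/+, and sFlk1 was 0.202 points above empty vector. Because labels were permuted within each model, the exact test asks whether neither model differs, not whether both differ alike. Over all bins 0.0117% were called in this contrast and 13% had an unadjusted p under 0.05, none of them among the 5 bins. After division by the tumour mean 6.20% did, among them Lyz2, which was then 1.17 points lower on the better oxygenated side (difference -1.17, SE 0.497; limma adjusted p = 0.761; exact permutation p = 0.0214).

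The difference between the models, that is the Phd2 difference minus the difference of empty vector over sFlk1, was 2.00 points at Cd14 (SE 0.84, 95% interval 0.274 to 3.72). Its exact permutation p was 0.0343, where the smallest possible is 0.00143, and the limma adjusted p was 0.927. Labels were permuted within each model, so the exact test asks whether neither model differs, not whether the differences are equal. Without empty vector 3 the difference between the models was 1.40 points with an exact permutation p of 0.0771. Without sFlk1 1 it was 1.93 points with an exact permutation p of 0.0543. Over the 900 kb window it was 0.151 points, and after division by the tumour mean 1.79 points (exact permutation p = 0.0129). The Lyz2 value was 1.48 points (SE 1.07, exact permutation p = 0.171), the Itgam 3′ bin 1.34 (SE 0.808, exact permutation p = 0.0671), the Itgam 5′ bin 0.712 (exact permutation p = 0.697) and Ptprc 0.0675 (exact permutation p = 0.941). In this contrast 0.0117% of bins were called, and 4.98% had an unadjusted p under 0.05, or 4.91% after division, with Cd14 as the 1 bin of the 5 in both.

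The bins around each gene set these values beside those of the surroundings. Cd14 sat on a step: the bin before it, which holds Hbegf, the gene of an EGF receptor ligand, read 5.52% on average and was above the Cd14 bin in 13 of 13 tumours. The bin after it, which holds protocadherin alpha genes, read 0.779% and was below it in 13 of 13, and the next bins read 0.889 and 1.02%. Of the 20 bins within 3 Mb on either side, 17 had a higher mean than the Cd14 bin, with a median of 5.03%. Most of the region had the direction of the genotype difference: 18 of the 20 had a higher mean in Phd2+/- tumours, against 75.1% of all bins. The median difference over the 20 was 1.49 points, and 7 of them exceeded the difference at Cd14. In the bins 300, 600 and 900 kb after Cd14 the differences were -0.264, 0.191 and -0.0363 points. With sFlk1, 17 of the 20 neighbours had a lower mean, against 59.5% of all bins. Their median difference over the 20 was -0.912 points, a value inside the 95% interval at Cd14. Whether the bin differs from its region was not tested.

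Ptprc stood near the middle of its surroundings and Lyz2 near the top. Of the 20 bins around Ptprc, 12 had a higher mean, with a median of 2.35% and a range of 0.421 to 5.19%. Both adjacent bins were above it: the next bin, that of the kinase gene Nek7, read 4.72% and was above the Ptprc bin in all 13 tumours, and the previous one, with no coding gene, read 3.16%. At Nek7 the Phd2 difference was 1.56 points (not called), where it was 0.329 at Ptprc. Among the 20, 12 had a higher mean in Phd2+/- tumours (75.1% of all bins did), with a median difference of 0.119 points, and 7 stood further above 0 than Ptprc. Lyz2 lay on a local high, with only 2 of its 20 neighbours above it and a median of 3.01%. Of those neighbours 16 had a higher mean in Phd2+/- tumours, 13 by more than Lyz2. With sFlk1 none stood further above 0 than Lyz2, while the bin 600 kb after it had a difference of -2.27 points. Around the Itgam 5′ bin 4 of 20 neighbours had a higher mean (median 2.81%), and 17 were higher in Phd2+/- tumours with a median difference of 0.761 points. None exceeded the difference of the 5′ bin, but the largest, at 1.54 points, was close to its 1.56. Around the Itgam 3′ bin 13 of 20 neighbours had a higher mean, and 10 had a larger genotype difference than that bin.

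**Figure D3:**
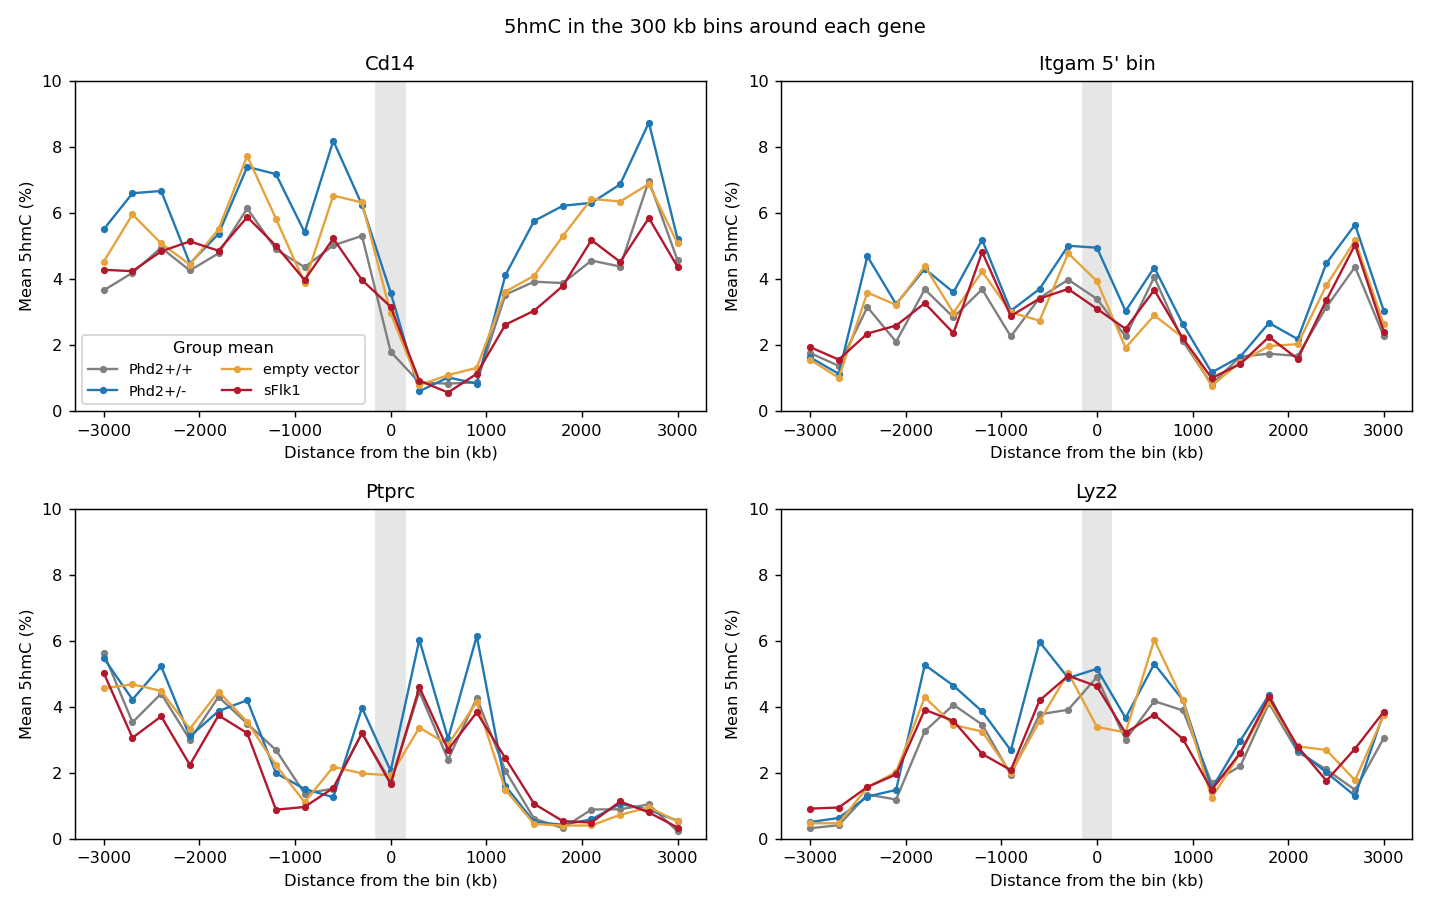
Mean 5hmC in percent (vertical axis) in the 300 kb bins up to 3000 kb on either side of the Cd14, Itgam 5′, Ptprc and Lyz2 bins (horizontal axis, kb from the shaded bin), with 1 line per group and no error drawn. The Cd14 bin sits on a fall from 5.52% to 0.779%, Ptprc below both adjacent bins, with Nek7 at 4.72%, and Lyz2 on a local high.

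Genes that work with the 4 were read in the same way, each in the bin that holds most of its body. The partners (the TLR4 route of CD14, the integrin route of ITGAM, the kinases that PTPRC acts on, and Lyz1) had a higher mean in Phd2+/- tumours for 15 of 16, with a median difference of 0.873 points, and a lower mean in sFlk1 for 10 of 16. Over all bins 75.1% had a higher mean in Phd2+/- and 59.5% a lower mean in sFlk1, and after division by the tumour mean 46.8% and 47.9%, where the partners gave 9 and 8 of 16. None was called. Lck, whose kinase CD45 activates in T cells, read 3.77% ± 0.352 (SD, n = 3) in Phd2+/+ and 6.15% ± 1.82 (n = 4) in Phd2+/- tumours, a difference of 2.38 points (limma adjusted p = 0.347). Itgb2, the beta chain that pairs with ITGAM, read 2.83% ± 0.684 (n = 3) and 4.51% ± 0.569 (n = 4), a difference of 1.68 points (limma adjusted p = 0.405). With sFlk1, Csk, which encodes the kinase that opposes CD45 on Src-family kinases, stood 1.58 points lower (difference -1.58, limma adjusted p = 0.724). Tlr4 itself, at 2.18% in Phd2+/+ and 2.47% in Phd2+/- tumours, differed by 0.287 points (limma adjusted p = 0.872). Lyz1 adds no value of its own, because it shares the Lyz2 bin.

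The 16 monocyte and macrophage genes had a higher mean in Phd2+/- tumours in 12 cases (median difference 0.76 points) and a lower mean in sFlk1 tumours in 7 (median 0.0309), or in 7 and 4 cases after division by the tumour mean. Ccr2, the receptor that brings monocytes out of the marrow, had the smallest p and went the other way, with 2.31% ± 0.0941 (SD, n = 3) in Phd2+/+ and 1.13% ± 0.485 (n = 4) in Phd2+/- tumours (difference -1.18, SE 0.472, limma adjusted p = 0.39). It was also lower in sFlk1 than in empty vector tumours (difference -0.982, limma adjusted p = 0.695). Ccl2, its ligand, read 1.21% in Phd2+/+ and 2.02% in Phd2+/- tumours (limma adjusted p = 0.561). Cd74, the invariant chain of MHC class II, read 6.73% ± 1.13 in empty vector and 4.57% ± 0.533 in sFlk1 tumours (SD, n = 3 each), a difference of -2.16 points (limma adjusted p = 0.629). The macrophage marker Adgre1 (F4/80) read 0.906% in Phd2+/+ and 0.88% in Phd2+/- tumours, and its bin also holds Vav1.

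Granulocyte genes had a higher mean in Phd2+/- for 9 of 10 (median 0.748 points) and a lower mean in sFlk1 for 7 of 10 (median -0.267), or for 4 and 6 after division. Ltf, the lactoferrin of neutrophil granules, read 5.07% ± 0.177 in empty vector and 3.34% ± 0.638 in sFlk1 tumours (SD, n = 3 each; difference -1.74, limma adjusted p = 0.643). Elane, neutrophil elastase, read 4.95% ± 1.24 and 3.06% ± 0.614 (SD, n = 3 each; difference -1.88, limma adjusted p = 0.673). By genotype the smallest p-values were those of Ly6g, a neutrophil surface marker, which stood 1.04 points lower in Phd2+/- (difference -1.04, limma adjusted p = 0.474), and of Csf3r, the G-CSF receptor, with a difference of 1.55 points (limma adjusted p = 0.508). Lymphocyte genes had a higher mean in Phd2+/- for 9 of 10 (median 0.494) and a lower mean in sFlk1 for 7 of 10 (median -0.635), or for 5 and 7 after division. Ncr1, a receptor of natural killer cells, read 1.18% ± 0.479 (SD, n = 3) in Phd2+/+ and 2.61% ± 0.291 (n = 4) in Phd2+/- tumours (difference 1.43, limma adjusted p = 0.357). It also read higher with sFlk1, at 1.46% ± 0.475 in empty vector and 2.64% ± 1.31 in sFlk1 tumours (SD, n = 3 each; difference 1.19, limma adjusted p = 0.686). Cd4, the co-receptor of helper T cells, differed by 1.03 points by genotype (limma adjusted p = 0.555). Ms4a1, which encodes the B-cell protein CD20, read 1.94% ± 0.646 in empty vector and 0.855% ± 0.657 in sFlk1 tumours (SD, n = 3 each; difference -1.09, limma adjusted p = 0.684).

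The genes common to all leukocytes had a higher mean in Phd2+/- for 8 of 9 (median 0.54) and a lower mean in sFlk1 for 2 of 9 (median 0.535), or for 4 and 2 after division. Coro1a, an actin regulator of leukocytes, read 3.69% ± 0.234 (SD, n = 3) in Phd2+/+ and 5.19% ± 0.319 (n = 4) in Phd2+/- tumours (difference 1.51, limma adjusted p = 0.428). Ptprcap, which encodes a protein bound to CD45, read 3.01% ± 0.318 (n = 3) and 4.00% ± 1.46 (n = 4). With sFlk1 the smallest p-values were those of Ikzf1, a lymphoid transcription factor gene, which stood 0.76 points higher (limma adjusted p = 0.842), and Cd53, a leukocyte tetraspanin gene, 0.612 points higher (limma adjusted p = 0.867). Myeloid transcription factor genes had a higher mean in Phd2+/- for 6 of 7 (median 0.579) and a lower mean in sFlk1 for 4 of 7 (median -0.429), or for 4 and 4 after division. Spi1, which encodes PU.1, read 3.77% ± 0.514 (n = 3), 4.91% ± 0.801 (n = 4), 5.56% ± 0.461 (n = 3) and 4.51% ± 0.435 (n = 3) in Phd2+/+, Phd2+/-, empty vector and sFlk1 tumours (limma adjusted p = 0.537 by genotype and 0.774 by plasmid). Runx1, a regulator of blood formation, stood 1.62 points lower in sFlk1 (difference -1.62, limma adjusted p = 0.707), and Cebpb, a macrophage and neutrophil factor gene, 0.988 points higher in Phd2+/- tumours (limma adjusted p = 0.579).

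Together the 4 leukocyte lists, in which Itgax has the value of the Itgam 3′ bin, held 45 genes in 43 bins. Of these, 38 had a higher mean in Phd2+/- tumours, with a median difference of 0.67 points, and 23 a lower mean in sFlk1, with a median of -0.096. Of all bins, 75.1% and 59.5% did so. After division by the tumour mean 20 of the 45 were higher in Phd2+/- and 19 lower in sFlk1, against 46.8% and 47.9% of all bins. Genes of other cells of the tumour were counted in the same way. Epithelial genes had a higher mean in Phd2+/- for 7 of 8 (median 1.17 points), endothelial genes for 4 of 6 (1.23) and fibroblast genes for 6 of 6 (0.603). Genes that share a bin, and so a value, were counted separately, among them Krt8 with Krt18 and S100a8 with S100a9. The fibroblast gene Pdgfrb likewise shares its bin with the macrophage gene Csf1r. With sFlk1 the mean was lower for 6 of 8 epithelial genes (median -0.484), 5 of 6 endothelial genes (-0.355) and 1 of 6 fibroblast genes (0.804). After division, 5 of 8 epithelial, 4 of 6 endothelial and 3 of 6 fibroblast genes were higher in Phd2+/-, and 4, 3 and 1 lower in sFlk1. The endothelial junction gene Esam had a difference of 1.80 points by genotype (limma adjusted p = 0.324), the same size as at Cd14, and the luminal factor gene Gata3 one of 2.88 points (limma adjusted p = 0.324). By genotype, Cdh1 (E-cadherin) differed by 1.89 points, Pecam1 (CD31) by 1.56, Pdgfra by 1.17 and Col1a1 by 1.01. With sFlk1, the fibroblast surface gene Thy1 stood 1.22 points higher, the matrix proteoglycan gene Dcn 1.05 higher and Cdh1 0.806 higher, and the differences at Gata3, Eng and Tek, the latter both endothelial receptor genes, were -1.75, -1.15 and -0.527. No listed gene was called in either contrast. What part the cell makeup of the tumours has in these values was not tested.

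**Figure D4:**
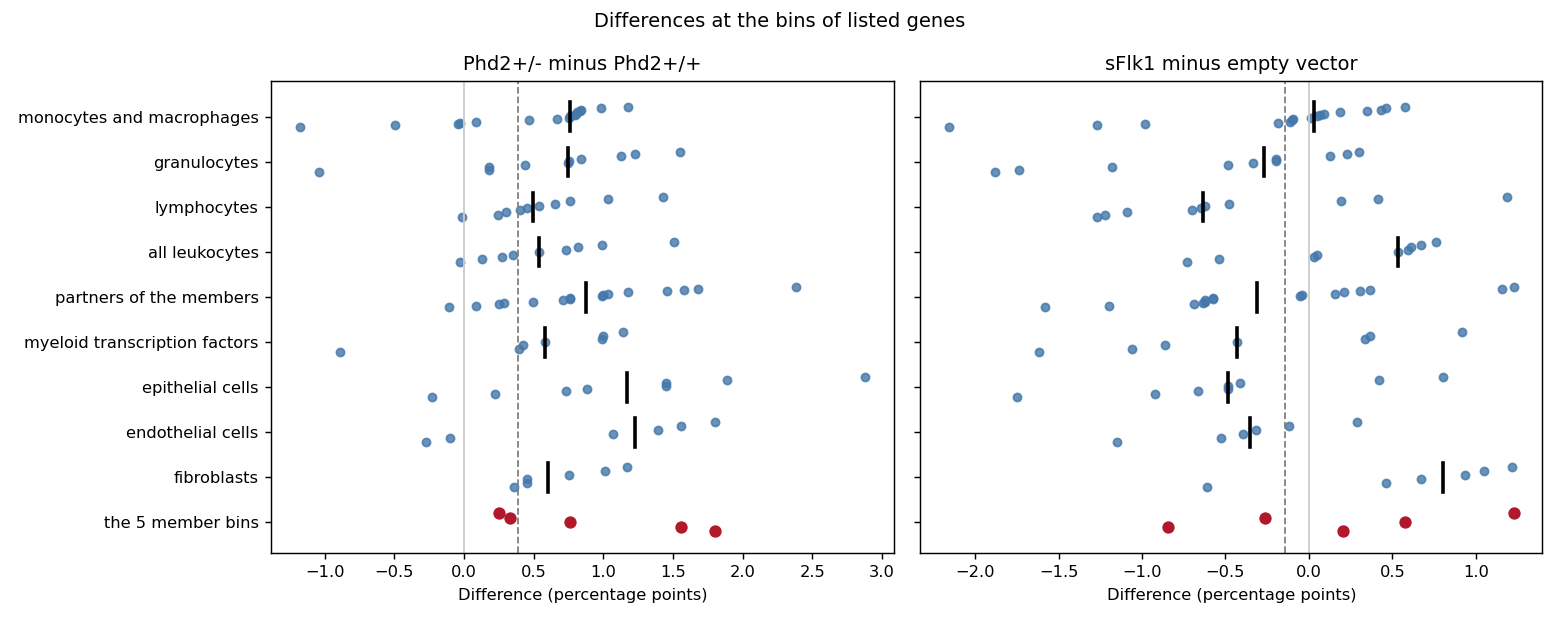
Difference in 5hmC in percentage points (horizontal axis) at the bin of each listed gene, by list (vertical axis), for Phd2+/- minus Phd2+/+ on the left and sFlk1 minus empty vector on the right; blue points are genes, black bars list medians, red points the 5 bins of Cd14, Itgam, Ptprc and Lyz2, and the dashed line the median of all bins. The medians of all 9 lists lie right of the dashed line at 0.385 points on the left, and on both sides of it on the right. Median 5hmC was also higher in the lists, at 3.06% (lymphocytes) to 4.99% (epithelial cells), than over all bins, at 2.36%. The differences shown are not divided by the tumour mean.

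The 5 bins did not share 1 pattern over the tumours. Across the 13 tumours, which come from 4 groups, Pearson's r between pairs of the 5 bins ran from -0.131 (Ptprc and Lyz2) to 0.538 (Itgam 3′ bin and Ptprc). Each r is a description, since bins of a tumour share its library and its overall level. Dividing by the tumour mean took r between Cd14 and the Itgam 5′ bin from 0.379 to 0.063, and between the 2 Itgam bins from 0.345 to 0.075. That between the Itgam 3′ bin and Ptprc was then 0.549.

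Among 7317 bins above 0 in all tumours and away from the gene (7321 for Ptprc), the 3 with the highest r over the 13 tumours were taken for each bin. For Cd14 they were a bin of chromosome 7 from 43500001 to 43800000 with Cd33, Siglece and kallikrein genes (r = 0.898), a bin of chromosome 19 with Blnk and Dntt (r = 0.884) and a bin of chromosome 2 with Tank and Psmd14 (r = 0.880). Cd33 and Siglece encode sialic acid receptors of myeloid cells, and Blnk and Dntt encode proteins of lymphocyte development. Those bins hold 16 and 7 coding genes, so the genes named are a selection from each, and the percentages do not resolve them. The Itgam 5′ bin was most like the bins of Asap3 and Hnrnpr (r = 0.956), Lias and Ugdh (r = 0.941) and Npas3 (r = 0.918). Its 3′ bin was most like those of Cd276 and Nptn (r = 0.865), Supt5 and Zfp36 (r = 0.858) and Adrb1 (r = 0.856). Ptprc was most like a bin of the H2-M10 genes, which are MHC class Ib genes (r = 0.828), and the bin of Vezt and Fgd6 (r = 0.773). Lyz2 was most like the bins of Prkcd and Sfmbt1 (r = 0.919), Pi4ka and Crkl (r = 0.883) and Serpinb1a and Serpinb9 (r = 0.843). These are the highest of all values computed for each bin, over 13 tumours, and the median r over all bins was 0.254 for Cd14 and 0.005 for Ptprc.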

How the data were processed

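Genomic DNA of 13 tumours was profiled by tet-assisted bisulfite sequencing. The authors deposited 1 table of 5hmC in percent per 300 kb bin, with a column for each tumour. The submitters' processing notes name Bismark 0.13.1 and the build mm9 without saying what they were used for. The last bin of chromosome 1 ends at 195471971, its length in GRCm38, so GRCm38 positions were used. How calls were pooled in a bin, coverage and filters are not stated in the sources used here; precision is known only from the spread between tumours, and counting error cannot be computed.

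Bins at 0 in all tumours or on Y or the mitochondrial genome (521) were left out. limma 3.58.1 in R 4.3.3 was fitted on the percentages of 8576 bins with 4 group means and a trend, with Benjamini-Hochberg adjustment; it was tested on simulated data. Exact two-sided permutation tests were run on single bins, within model. Replicates are tumours of separate mice. Members and lists were chosen with earlier results of these data known. Named genes were the 4 genes, genes that share their bins, the 2 genes per list with the smallest p in each contrast, and the 3 bins most correlated with each bin (1 for Ptprc is not reported here); Tlr4, Adgre1 and the neighbouring bins were named after their values were seen. Alternatives were other scales, filters, windows (900 kb), weights, a replicate block and leaving out each tumour.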

Additional observations from a re-analysis of the deposited data

Results flagged for a closer look

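At Cd14 the difference of Phd2+/- over Phd2+/+ tumours was 2.00 points above that of empty vector over sFlk1 tumours. Its exact permutation p was under 0.05 before any adjustment (0.0343), as in 2 of the 20 tests of the 5 bins. The other was the Phd2 difference at Cd14 (exact permutation p = 0.0286), which is itself part of the difference between the models. The difference between the models was not called over all bins (limma adjusted p = 0.927), and it was 0.151 points over the 900 kb window. The exact permutation p ran from 0.00857 without empty vector 1 to 0.0771 without empty vector 3, and was 0.0543 without sFlk1 1. That test permutes labels within each model, so it asks whether neither model differs, not whether the differences are equal. The models also differ in age, so age and model cannot be told apart.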

How the results depend on the processing

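None of the 5 bins was called in any contrast under any alternative run; the lowest limma adjusted p was 0.14. Of 210 single differences under alternatives other than leaving out a tumour, 195 kept their direction, and of 260 with a tumour left out, 244 did. The cause of the reversals was not tested. Dividing by the tumour mean reversed the Phd2 difference at Ptprc (-0.00463) and Lyz2 (-0.747), the oxygenation contrast at the Itgam 3′ bin (-0.277) and the difference between the models at Ptprc (-0.1). Subtracting the tumour mean reversed the same 4 (-0.197, -0.277, -0.28 and -0.24) and the oxygenation contrast at Ptprc (-0.0772). The 900 kb window reversed the sFlk1 difference at Cd14 (-0.671) and Ptprc (0.728) and the oxygenation contrast at Lyz2 (0.121). The arcsine scale (-0.00365) and log2 scale (-0.12) reversed the difference between the models at Ptprc.

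Same-numbered tumours did not deviate together over bins (r from -0.093 to -0.004 in the Phd2 model and from -0.053 to -0.042 in the plasmid model), and the main fit did not pair them. Such an r does not register a shift of a tumour's whole level, so it cannot decide whether same-numbered tumours were handled together. With the replicate block the Cd14 Phd2 difference was 1.86 (limma adjusted p = 0.275), the difference between the models at Ptprc reversed (-0.0804), and the calls over all bins were 0 by genotype and 1 in each other contrast, as without it.

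With each tumour left out in turn, the Phd2 difference ran from -0.0029 to 0.702 at Ptprc and from -0.137 to 0.655 at Lyz2. The sFlk1 difference ran from -0.396 to 0.647 at Cd14 and from -0.71 to 0.218 at Ptprc. The oxygenation contrast at the Itgam 3′ bin ran from -0.0946 to 0.254. The difference between the models ran from -0.209 to 1.35 at the Itgam 5′ bin and from -0.381 to 0.547 at Ptprc. The Itgam 5′ bin exceeded Cd14 by 0.813 to 1.17 points. The number of exact tests under 0.05 ran from 1 to 3 of 20, against 2 with all tumours and 3 after dividing by the tumour mean; leaving out any tumour of the Phd2 model raises the smallest p its contrast can give above 0.05.

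Over all bins, calls in the oxygenation contrast were 1 as reported, 2 on the arcsine and log2 scales, with the tumour mean subtracted and in 900 kb windows, 3 without a trend and 0 among bins above 0 in all tumours; calls in the difference between the models were 1, and 0 among those bins and in 900 kb windows. By genotype the log2 scale gave 1 call where the percentages gave 0, and by plasmid the 900 kb window gave 0 where they gave 1. With a tumour left out, calls ranged from 0 to 1 by genotype, 1 to 4 by plasmid, 1 to 3 in the oxygenation contrast and 1 to 2 in the difference between the models. Unknown depth limits all single-tumour values.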
